A study of Mus musculus with 2 samples.

Results

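The genes of the mitochondrial respiratory chain were followed across the cell types of mouse pancreatic islets, with 107 members among the 31054 features of the deposited tables. Members were taken by symbol: Nduf, Sdha to Sdhd, Uqcr, Cox4 to Cox8 and Atp5 for the nuclear genome, and mt-Nd, mt-Co, mt-Cytb and mt-Atp for mitochondrial DNA (mtDNA). A member also needed at least 20 UMIs (unique molecular identifiers, each standing for 1 captured transcript) over all barcodes of both libraries. Of 110 matching entries outside the -ps pseudogenes, 3 stayed out with 0 UMIs, namely Cox8b, Cox8c and the second identifier of Atp5o. The members comprised 79 nuclear structural subunits (36 of complex I, 4 of complex II, 8 of complex III, 16 of complex IV and 15 of complex V), 13 mtDNA-encoded subunits (7 of complex I, 1 of complex III, 3 of complex IV and 2 of complex V), 14 assembly and supercomplex factors, and Ndufa4l2, an isoform of Ndufa4.

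Islets were isolated from male C57Bl6 mice of 12 weeks. Tg7 mice overexpress the microRNA miR-7a2 in their β-cells, and Wild-type mice were their littermates without the transgene. The study describes Tg7 mice of 12 weeks as hyperglycaemic, a state that cannot be told apart from genotype here. According to the study, the islets for single-cell RNA-seq came from Tg7 and Wild-type mice that both carried a rat Ins2-Cre and a Rosa26 tdTomato reporter. The tdTomato feature had 289 UMIs in the Tg7 library and 407 in the other. No promoter of the miR-7a2 transgene is given in the sources used here, and miR-7a2 itself is not a feature of the tables. Each genotype is 1 library (10x Genomics), and the number of mice behind each is not given, so no test between genotypes was possible and genotype and library cannot be told apart. All intervals below are 95% intervals that cover counting error and nothing else.

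The Tg7 library held 29931777 UMIs in 1123 barcodes and the Wild-type library 30829078 in 855, and 0 barcodes were found in both. After filtering, 992 Tg7 and 749 Wild-type cells remained, with medians of 24246.5 and 39579 UMIs. Cells were clustered without the members and named from marker genes: 556 Tg7 and 477 Wild-type cells were β-like, 189 and 148 α-like, 74 and 67 δ-like, 129 and 17 γ-like, 19 and 32 endothelial-like, and 25 and 8 macrophage-like. All 12 β-cell markers were detected in the β-like class of both libraries. The class rests on the integration of the libraries: clustered without it, 1 Tg7 and 451 Wild-type cells were β-like by the same naming. Cells positive for insulin alone were also taken from any cluster, an alternative chosen after seeing the data. It leaves out insulin-positive cells that are positive for a further hormone. There the main isoform share described below was 4.12% in Tg7 and 63.1% in Wild-type. The mtDNA to nuclear quotient of Tg7 over Wild-type was 0.644 in these cells. The γ-like and δ-like classes were mixed, with insulin above its threshold in 90 of the 129 Tg7 γ-like cells, so values of the cells positive for 1 hormone alone (insulin, Gcg, Sst or Ppy only) are given where mixing bears on a member.

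Insulin transcripts took 28.7% of all UMIs in Tg7 against 62.8% in Wild-type β-like cells. A level below is therefore the UMIs of a gene per 10000 UMIs of genes other than 7 hormone genes (Ins1, Ins2, Iapp, Gcg, Sst, Ppy and Pyy), and a ratio is the Tg7 over the Wild-type level. The median log2 ratio of all 12580 genes with at least 20 UMIs in β-like cells was then -0.02. With all UMIs as the scale, every β-like ratio would be multiplied by 1.75 (0.81 on the log2 scale). A direction in β-like cells therefore holds relative to the other non-hormone transcripts, and shares within a pair of isoforms and mtDNA to nuclear quotients do not depend on this choice. "Past 1.5-fold" stands in for a test and says nothing of the spread between mice.

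Complexes I and II pass electrons from NADH and succinate to ubiquinone, complex III passes them on to cytochrome c, and complex IV hands them to oxygen. The protons pumped on the way drive complex V, the ATP synthase. In β-cells the ATP made from glucose in this manner closes ATP-sensitive potassium channels and starts insulin secretion. Complexes I, III, IV and V are assembled from proteins of both genomes, complex II from nuclear genes alone. Several small subunits of complex IV exist as isoforms that differ between tissues, such as Cox6a2, the form known from heart and skeletal muscle, and its widespread counterpart Cox6a1.

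The microRNA raised in Tg7 mice is shown first, since it defines the genotypes. Its mature form, miR-7a-5p, lies at chr7:78888295-78888317 on the plus strand of GRCm38.p6 (RefSeq), and capitals mark the seed, bases 2 to 8:
miR-7a-5p: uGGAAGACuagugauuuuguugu
Exact matches to this seed (GTCTTCC) were looked for in annotated 3′ UTRs, a search added with the values in view. Of 87 nuclear subunits and assembly factors with such a UTR, 3 (3.45%) held a match, beside 1442 of 10618 genes (13.6%) with at least 20 UMIs in β-like cells, and the median UTR length was 201 bases in members against 1227.5 bases. The matches in Ndufa11 and Sdhd are shown as examples, with the seed match in capitals, and they start at base 1257 of 2151 in Ndufa11 and base 658 of 747 in Sdhd.
Ndufa11: accatggctttGTCTTCCatgggtctgaca
Sdhd: agtgataaactGTCTTCCcaccgtgggagt
In β-like cells the ratio was 0.982 (0.934 to 1.03) for Ndufa11, an accessory subunit of complex I, and 0.752 (0.677 to 0.835) for Sdhd, which anchors complex II in the membrane. Scaled to all UMIs these ratios were 1.72 and 1.32.

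The member that differed most between the libraries was Cox6a2. Its gene, at chr7:128205435-128206366 (GRCm38.p6), had 85 UMIs in 556 Tg7 β-like cells and 3283 UMIs in 477 Wild-type β-like cells. The level was 0.0798 in Tg7 against 4.07 in Wild-type, a ratio of 0.0196 (0.0156 to 0.0243), or 50.9-fold lower in Tg7 (41.1 to 64.0), and the ratio was 0.0343 with all UMIs as the scale. Among 3345 genes with at least 1000 UMIs in β-like cells, 10.6% were past 1.5-fold lower in Tg7, and only 3 had a smaller ratio than Cox6a2, which ranked 4 from the lowest. Among 10188 genes with at least 100 UMIs it ranked 10 from the lowest.

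Cox6a1, at chr5:115345652-115348958, had 1990 UMIs in Tg7 against 1912 in Wild-type β-like cells. Its level was 1.87 against 2.37, a ratio of 0.789 (0.741 to 0.841) that turned to 1.38 when scaled to all UMIs. Cox6a2 therefore made up 4.10% (3.28 to 5.04) of the UMIs of the pair in Tg7 against 63.2% (61.9 to 64.5) in Wild-type β-like cells, a quantity free of the scale. The β-like class was made of 3 clusters, which are parts of the same libraries and not replicates. The share in them was 2.83%, 2.27% and 8.58% in Tg7 against 62.6%, 60.1% and 67.3% in Wild-type. In cells positive for insulin alone it was 4.51% against 63.3%.

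A Cox6a2 UMI was found in 34 of 556 Tg7 β-like cells (6.12%) and in 409 of 477 Wild-type β-like cells (85.7%). With each cell thinned to 2000 non-hormone UMIs, leaving out 9 and 4 shallower cells, these shares were 8 of 547 (1.46%) and 214 of 473 (45.2%). In α-like cells, taken as the background, the thinned shares were 1 of 183 in Tg7 (0.546%, 0.0138 to 3.01) and 2 of 148 in Wild-type (1.35%, 0.164 to 4.8). Median depths before thinning were 8516 and 8896.5 non-hormone UMIs in α-like cells and 15333.5 and 14237 in β-like cells. The thinned share of Tg7 β-like cells (0.633 to 2.86) overlapped these background shares, so it is read neither as expression nor as its absence. That of Wild-type (40.7 to 49.9) lay far above them. Without thinning, the Tg7 level in insulin-only cells was 6.15 (1.65 to 51.6) times that in Gcg-only cells, from 84 and 2 UMIs. Before thinning, 12 Tg7 β-like cells with 3 or more UMIs carried 59 of the 85 Tg7 UMIs, and their median depth was 37386.5 non-hormone UMIs against 15205.5 in the 522 cells without a UMI. The median Ins1 share of all UMIs was 2.21% in the 34 Tg7 cells with a Cox6a2 UMI and 1.28% in those without. The quartile ranges of these Tg7 cells overlapped (1.14% to 4.11% and 0.582% to 2.31%). In the 12 Tg7 cells with 3 or more Cox6a2 UMIs the median was 1.61%. Wild-type cells with and without a Cox6a2 UMI had medians of 19.5% and 16.2%.

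Outside the β-like class Cox6a2 was near the floor in both libraries. In α-like cells positive for Gcg alone there were 2 UMIs in 153 Tg7 and 2 in 130 Wild-type cells, shares of the pair of 0.575% (0.0697 to 2.06) and 0.733% (0.0888 to 2.62). In the Sst-only, Ppy-only, endothelial-like and macrophage-like cells there was no Cox6a2 UMI in either library, which allows up to 18.8% of 16 Tg7 and 13.6% of 22 Wild-type Sst-only cells, 23.1% of 13 and 37.5% of 8 Ppy-only cells, 15.8% of 19 and 9.38% of 32 endothelial-like cells and 12.0% of 25 and 37.5% of 8 macrophage-like cells to hold a UMI at this depth and sets no limit on expression. Higher shares in the whole δ-like class (3.97% in Tg7 against 30.6% in Wild-type) and γ-like class (0.673% and 39.4%) came from cells outside the Sst-only and Ppy-only subsets, which had none. Of the 11 UMIs in the Wild-type α-like class, 9 were in 1 cell. Cox6a1, by contrast, was detected in every class, at levels between 1.16 and 2.51 over the 6 classes of Tg7 and between 2.02 and 2.37 over those of Wild-type.

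**Figure D1:**
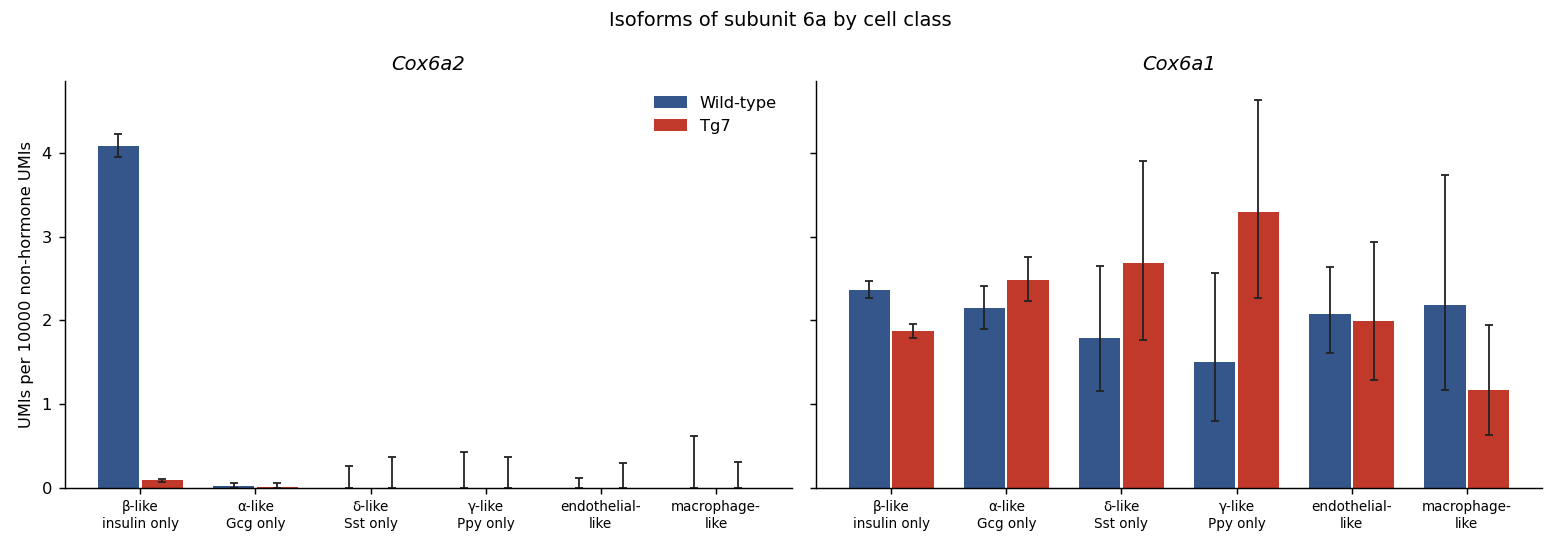
UMIs per 10000 non-hormone UMIs of Cox6a2 (left) and Cox6a1 (right) in each cell class of the Wild-type (blue) and Tg7 (red) libraries, with exact Poisson 95% intervals for counting error; endocrine classes hold the cells positive for 1 hormone. Cox6a2 stands at 4.09 in insulin-only Wild-type cells against 0.0884 in Tg7 and near 0 elsewhere, while Cox6a1 is found in every class, at 2.37 against 1.87 in insulin-only cells (an order that turns when scaled to all UMIs).

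Other isoforms of complex IV known from particular tissues were rare in endocrine cells. Cox7a1, the heart and muscle form beside Cox7a2, had 21 and 23 UMIs in Tg7 and Wild-type β-like cells, or 0.335% and 0.532% of its pair. Cox7b2 had 11 and 6 UMIs and Cox6b2, known from testis, 5 and 3, too few for a comparison. Cox4i2, an isoform of Cox4i1 that is known from lung and from oxygen-sensing cells, had 0 UMIs in β-like, α-like, δ-like, γ-like and macrophage-like cells of both libraries, which allows at most 0.0402% of the pair in Tg7 against 0.0669% in Wild-type β-like cells.

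Cox4i2 was detected in the endothelial-like class alone, with 13 UMIs in 4 of 19 Tg7 and 66 UMIs in 14 of 32 Wild-type cells. It made up 17.6% (9.70 to 28.2) and 23.8% (18.9 to 29.3) of the UMIs of the Cox4i1 pair there. Ndufa4l2, an isoform of the complex IV subunit Ndufa4, followed the same class with 29 and 104 UMIs, or 37.7% (26.9 to 49.4) and 51.5% (44.4 to 58.6) of its pair, against 0.140% and 0.178% in β-like cells. The class was not pure: Rgs5, a pericyte gene looked up after these values were seen, had at least 3 UMIs in 5 Tg7 and 19 Wild-type cells, and these cells held all 13 and all 66 Cox4i2 UMIs. Cells with at least 3 UMIs of the endothelial gene Kdr held 8 of the 13 and 21 of the 66. By the same rule, cells with Pdgfrb held 8 and 22, with Cspg4 0 and 6, and with Acta2 2 and 29. Those with Pecam1 held 8 and 21, with Col1a1 3 and 0, and with Col3a1 6 and 29. Of the genes looked up, only Rgs5 marked cells that held every Cox4i2 UMI. The cell type behind these UMIs was not tested. The intervals of the libraries overlapped for both isoforms, and the Ndufa4l2 UMIs came from 7 and 16 cells.

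The 3 genes for the c subunit of ATP synthase, Atp5g1, Atp5g2 and Atp5g3, encode the same mature protein and were used in different proportions by cell class. Atp5g1 made up 38.0% (37.3 to 38.7) of their UMIs in Tg7 against 40.1% (39.2 to 41.0) in Wild-type β-like cells, compared with 29.5% (27.8 to 31.3) and 22.9% (20.9 to 25) in α-like cells. Atp5g2 took 45.5% and 41.1% in β-like and 53.1% and 60.9% in α-like cells. Atp5g3 varied less, at 16.5% and 18.8% in β-like and 17.4% and 16.2% in α-like cells. The β-like and α-like profiles therefore lay closer to each other in Tg7 than in Wild-type.

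The mtDNA-encoded and nuclear subunits differed between the libraries in unlike ways in β-like cells. The 13 mtDNA-encoded subunits summed to a level of 824 in Tg7 against 1220 in Wild-type, a ratio of 0.675 (0.673 to 0.677), which turned to 1.18 when scaled to all UMIs. The nuclear subunits summed to 276 and 259, a ratio of 1.07 (1.06 to 1.07), or 1.87 when scaled to all UMIs. Per nuclear subunit UMI there were 2.98 (2.97 to 3.0) mtDNA-encoded UMIs in Tg7 against 4.72 (4.70 to 4.74) in Wild-type β-like cells, and this quotient, which no scaling touches, was 0.632 (0.628 to 0.636) times as large in Tg7. Over single β-like cells its median was 2.89 (interquartile range 2.54 to 3.34) in Tg7 against 4.54 (3.70 to 5.52) in Wild-type, so the quartile ranges did not overlap. In the 3 β-like clusters, which are parts of the same libraries, it was 2.81, 3.06 and 3.17 against 4.33, 4.77 and 5.16.

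Among Wild-type classes the quotient was highest in β-like cells, whereas in Tg7 the β-like cells came next to last. The next Wild-type values were 3.28 in endothelial-like, 3.27 in δ-like, 3.20 in γ-like, 3.01 in α-like and 2.53 in macrophage-like cells, of which endothelial-like, δ-like and γ-like had overlapping intervals. In Tg7 the order was endothelial-like (4.19), γ-like (3.40), macrophage-like (3.19), δ-like (3.18), β-like (2.98) and α-like (2.78) cells. Tg7 over Wild-type was 0.924 (0.909 to 0.939) in α-like and 0.971 (0.953 to 0.990) in δ-like cells, near 1 beside the β-like value, and 1.28 (1.2 to 1.36) in endothelial-like and 1.26 (1.15 to 1.38) in macrophage-like cells, which are few. The values in cells positive for 1 hormone were 0.632 for insulin, 0.94 for Gcg, 0.979 (0.920 to 1.04) for Sst and 1.23 (1.15 to 1.32) for Ppy, the last from 13 and 8 cells.

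**Figure D2:**
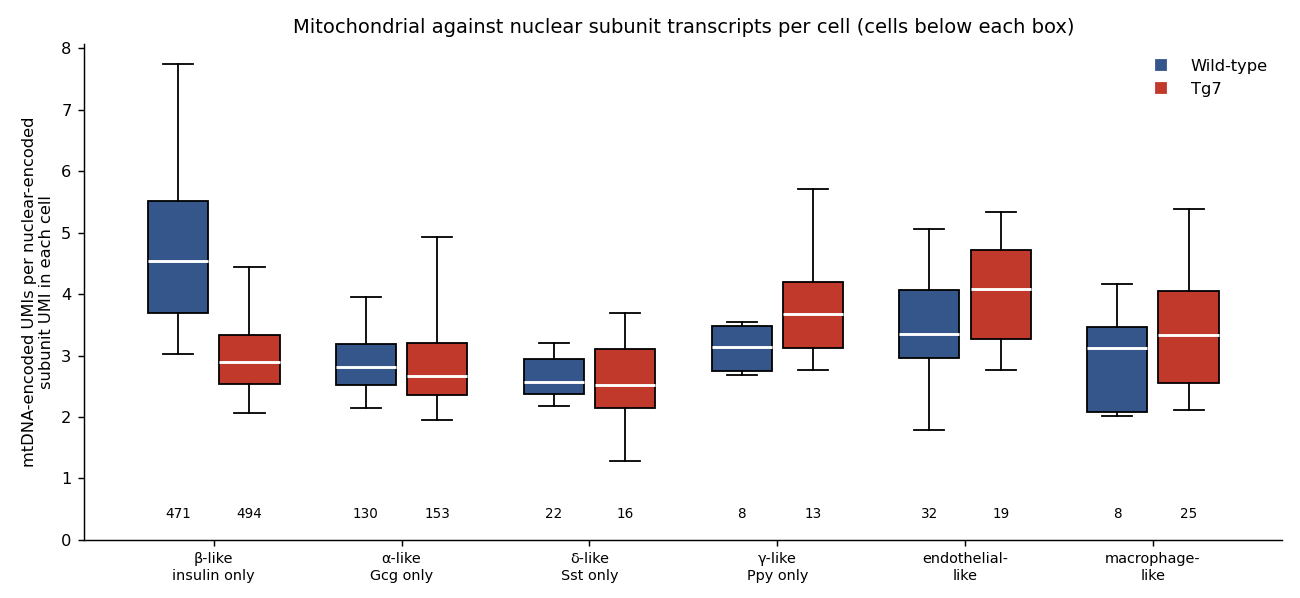
UMIs of the mtDNA-encoded subunits per UMI of the nuclear subunits in each cell, by class and library (blue Wild-type, red Tg7); boxes show the quartiles with the median as a white line, whiskers run from the 5th to the 95th percentile, and the number of cells stands below each box. The median is 4.54 in insulin-only Wild-type cells and 2.89 in Tg7, while the Gcg-only and Sst-only boxes of the libraries overlap.

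All 13 mtDNA-encoded members had lower levels in Tg7 β-like cells, and 8 were past 1.5-fold lower (61.5%, beside 14.0% of the 12580 genes tested); scaled to all UMIs none was past 1.5-fold lower and their ratios ran from 1.0 to 1.48. These transcripts are cut from long polycistronic precursors, so they are not independent of each other, and the same UMIs entered the filter on mitochondrial content. The genes of mt-Atp8 and mt-Atp6, and of mt-Nd4l and mt-Nd4, overlap, so the split of UMIs within these pairs is uncertain. Within complex I, which has 7 mtDNA-encoded subunits, the ratio was lowest for mt-Nd6 (133 against 176 UMIs, 0.573, 0.454 to 0.722), the subunit read from the opposite strand, and for mt-Nd2 (33.4 against 57.6 per 10000, 0.580). mt-Nd4 was at 0.617, mt-Nd5 at 0.630 and mt-Nd4l at 0.632, whereas mt-Nd1 (0.774) and mt-Nd3 (17.3 against 20.5 per 10000, 0.845, 0.827 to 0.863) were less far from 1. mt-Cytb, the mtDNA-encoded core of complex III, had 91.8 against 158 UMIs per 10000, a ratio of 0.580 (0.575 to 0.585).

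The catalytic core of complex IV differed less. mt-Co1, mt-Co2 and mt-Co3 had ratios of 0.753, 0.729 and 0.728, none past 1.5-fold, while mt-Atp6 (151 against 250 per 10000, 0.604) and mt-Atp8 (0.607, 0.558 to 0.660) of complex V were both past it. In α-like cells none of the 13 was past 1.5-fold in either direction: 9 were higher and 4 lower (2 and 11 scaled to all UMIs), from 0.794 (0.631 to 1.0) for mt-Atp8 to 1.21 (0.689 to 2.16) for mt-Nd6, and their sum had a ratio of 1.04 (1.03 to 1.05), or 0.963 scaled to all UMIs. The sum in δ-like cells had a ratio of 1.06 (1.05 to 1.07).

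**Figure D3:**
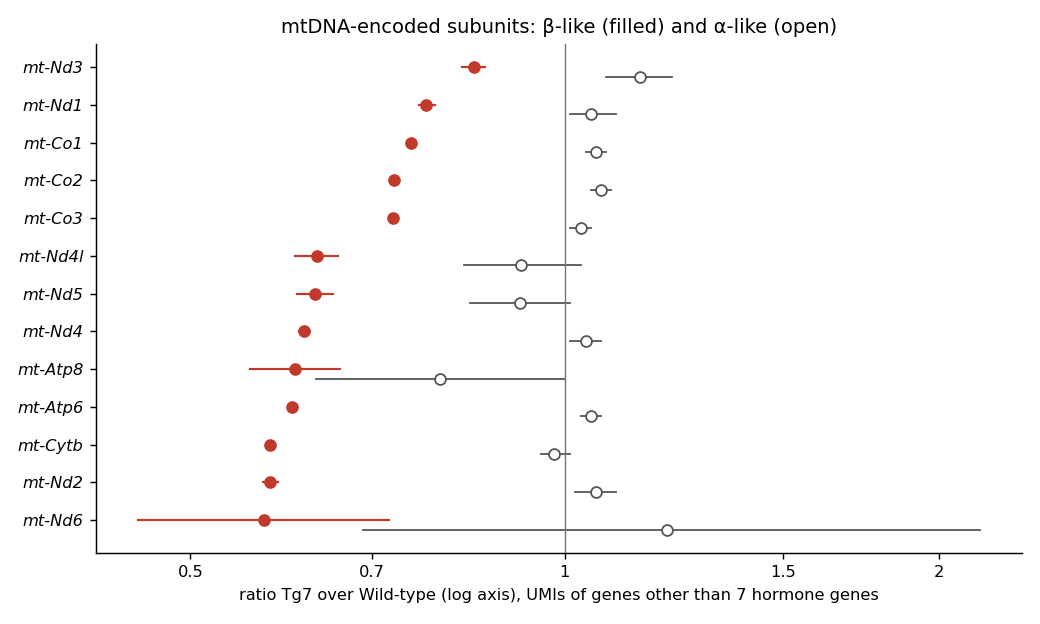
Tg7 over Wild-type ratio (log axis) of each mtDNA-encoded member in β-like (filled) and α-like (open) cells, with 95% intervals for counting error, scaled to non-hormone UMIs. In β-like cells all 13 lie below 1, from 0.573 (mt-Nd6) to 0.845 (mt-Nd3), but run from 1.0 to 1.48 with all UMIs as the scale; in α-like cells they lie between 0.794 and 1.21.

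The 5 members whose level varied most over the Wild-type classes were also mtDNA-encoded: mt-Atp6, mt-Co1, mt-Co2, mt-Cytb and mt-Co3. For mt-Atp6, a proton-channel subunit of complex V, the Wild-type levels were 250 in β-like, 170 in γ-like, 146 in δ-like, 131 in α-like, 116 in endothelial-like and 95.1 in macrophage-like cells. The Tg7 levels in the same order were 151, 158, 142, 137, 137 and 105. For mt-Cytb the Wild-type levels ran from 158 in β-like to 42.4 in macrophage-like cells, and the Tg7 levels from 96.3 in γ-like and 91.8 in β-like to 45.7 in macrophage-like cells. The β-like class thus stood well above the other classes in Wild-type and among the endocrine classes in Tg7, an order that holds relative to non-hormone transcripts alone: per 10000 of all UMIs, Wild-type mt-Atp6 was at 81.0 in β-like, 74.8 in α-like and 115 in endothelial-like cells.

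Of the 79 nuclear subunits, 76 reached 20 UMIs in β-like cells, and 31 were lower and 45 higher in Tg7 (median log2 ratio 0.09). Past 1.5-fold, 2 were lower (2.63%, beside 14.0% of all genes tested), with Cox6a2 the lowest, and 3 were higher (3.95%, beside 17.2%), Ndufa1, Ndufa4 and Uqcrh. Scaled to all UMIs, 1 was past 1.5-fold lower and 66 were past it in the higher direction. Every β-like ratio, of members and other genes alike, is multiplied by 1.75 on that scale. The share of all genes past 1.5-fold was not computed there, so these counts are not read as a result about the members. In α-like cells 74 reached 20 UMIs, of which 67 were higher and 7 lower (50 and 24 scaled to all UMIs), with a sum at a ratio of 1.13 (1.11 to 1.14, or 1.04 scaled to all UMIs). There 0 were past 1.5-fold lower (beside 11.0% of genes) and 1, Atp5g1, was past it higher (1.35%, beside 8.92%). In δ-like cells 1 of 75 was past 1.5-fold lower, Cox6a2 (1.33%, beside 11.7%), and 2 were past it higher, Cox7b and Ndufa1 (2.67%, beside 10.7%), in a class of mixed cells.

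**Figure D4:**
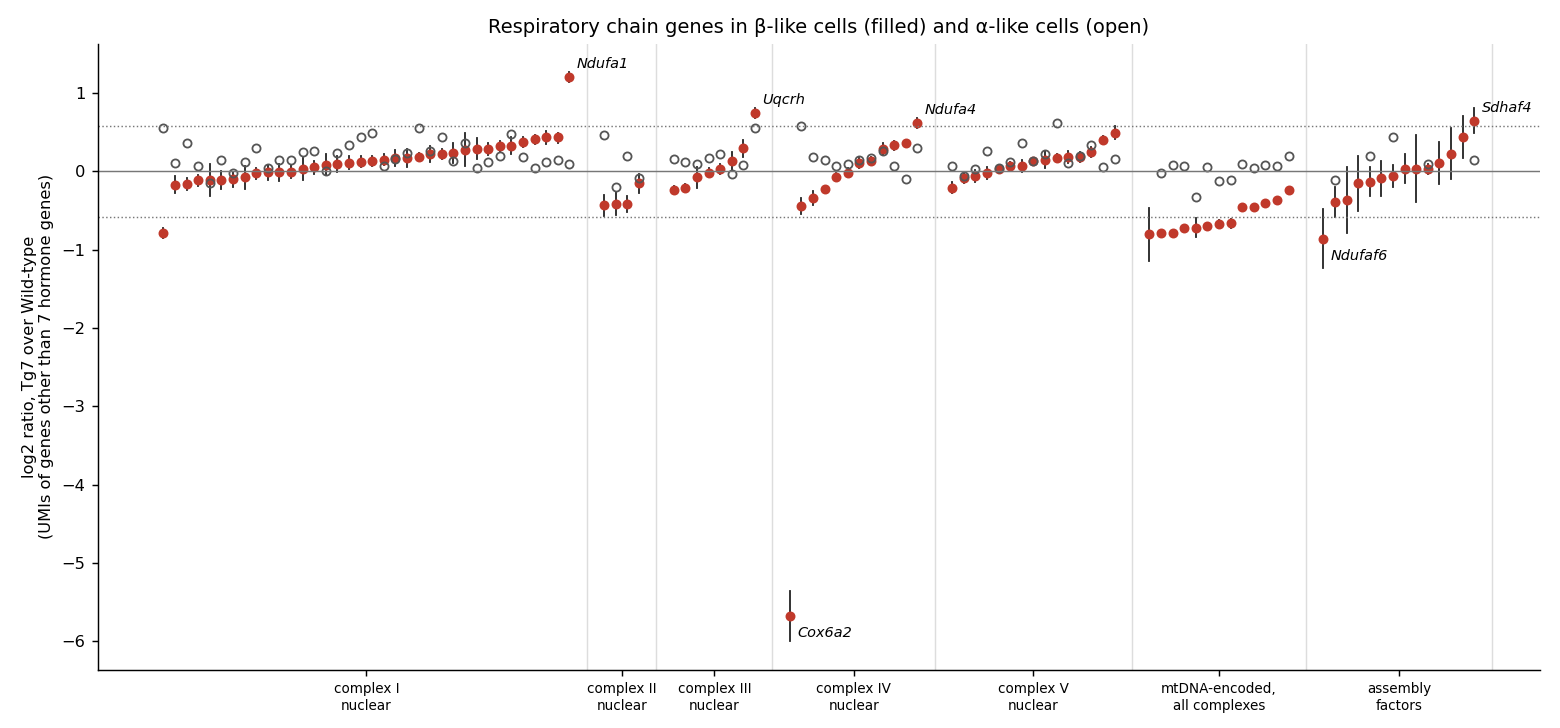
Tg7 over Wild-type log2 ratio of each member with at least 100 UMIs in β-like (filled, with 95% counting intervals) and α-like (open) cells, grouped by complex, scaled to non-hormone UMIs; dotted lines mark 1.5-fold. Cox6a2 lies at -5.67 and Ndufa1 at 1.2, most nuclear subunits lie between the lines and the mtDNA-encoded group lies below 0, but with all UMIs as the scale every β-like point moves up by 0.81.

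Complex I had the member furthest above 1. Ndufa1, a small membrane-arm subunit encoded on chromosome X (chrX:37187588-37191238), had 8393 UMIs in Tg7 against 2763 in Wild-type β-like cells, levels of 7.88 and 3.42 and a ratio of 2.30 (2.21 to 2.40). Its level was 8.89, 7.45 and 6.99 in the 3 Tg7 β-like clusters and 4.03, 3.16 and 3.06 in the Wild-type clusters. These clusters are parts of the same libraries and not replicates. After thinning, 71.3% of Tg7 and 47.4% of Wild-type β-like cells had a UMI of Ndufa1. In α-like cells its ratio was 1.07 (0.943 to 1.21, or 0.988 scaled to all UMIs). It was higher in the mixed δ-like (5.33 against 3.18, 1.68, 1.47 to 1.92) and γ-like classes (6.27 against 2.97, 2.12, 1.63 to 2.80), while the intervals held 1 in the few Sst-only (36 against 32 UMIs, 1.56, 0.939 to 2.59) and Ppy-only cells (40 against 31 UMIs, 1.12, 0.681 to 1.85). Among the 3345 genes with at least 1000 UMIs it ranked 90 from the highest, where 9.78% were past 1.5-fold higher, and among 10188 genes with at least 100 UMIs 471 from the highest.

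Among the lowest complex I members with at least 100 UMIs were Ndufb4 (0.887) and Ndufb2 (0.893), and after Ndufa1 the highest were Ndufc2 (1.35) and Ndufb5 (1.35), all accessory subunits. The 36 nuclear complex I subunits summed to a ratio of 1.13 (1.12 to 1.14), 24 higher and 12 lower, whereas the 7 mtDNA-encoded ones summed to 0.660 (0.656 to 0.664, or 1.15 scaled to all UMIs).

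Complex II, succinate dehydrogenase, which is also an enzyme of the tricarboxylic acid cycle, was the 1 complex whose nuclear members were all lower relative to the non-hormone transcripts, and all 4 were higher when scaled to all UMIs. Sdhc was at 0.815 against 1.10 (0.739, 0.672 to 0.812), Sdha, the flavoprotein, at 1.38 against 1.84 (0.750, 0.698 to 0.807), Sdhd at 0.677 against 0.901 (0.752) and Sdhb, the iron-sulphur subunit, at 1.14 against 1.27 (0.899, 0.826 to 0.977). None was past 1.5-fold, and their sum had a ratio of 0.785 (0.752 to 0.819), or 1.37 scaled to all UMIs. In α-like cells 2 were lower and 2 higher, with a sum at 1.05 (0.935 to 1.17).

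In complex III the hinge protein Uqcrh had 7033 against 3172 UMIs in β-like cells and a ratio of 1.68 (1.61 to 1.75), beside 1.47 (1.34 to 1.61) in α-like cells. Uqcrfs1, the Rieske protein, followed at 1.23 and the core protein Uqcrc2 at 1.10. The lowest were Uqcrq (0.848), Uqcrb (0.862) and Uqcrc1 (0.947). The 8 nuclear subunits summed to 1.03 (1.02 to 1.05), with 4 on each side of 1, while mt-Cytb was at 0.580.

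Complex IV held both the lowest member and Ndufa4, once assigned to complex I, at 5.34 against 3.47 (1.54, 1.47 to 1.61). After Cox6a2, the lowest members with at least 100 UMIs were Cox5a at 1.39 against 1.90 (0.735, 0.684 to 0.790) and Cox6a1. After Ndufa4 the highest were Cox7c (1.28) and Cox4i1 (7.0 against 5.56, 1.26). The nuclear subunits of the complex summed to 0.984 (0.973 to 0.996) with 7 lower and 6 higher of 13 measured, and its mtDNA-encoded core to 0.737.

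In complex V, 11 of 15 nuclear subunits were higher and 4 lower, none past 1.5-fold, with a sum at 1.09 (1.08 to 1.10). The central stalk gene Atp5c1 had 3.54 against 2.51 (1.41, 1.33 to 1.49), followed by Atp5g2 (1.32) and Atp5j (1.19). The catalytic β subunit Atp5b was lowest at 0.866 (0.825 to 0.910), then the α subunit Atp5a1 (0.944) and Atp5k (0.958). The mtDNA-encoded mt-Atp6 and mt-Atp8 summed to 0.604 (0.600 to 0.608, or 1.06 scaled to all UMIs).

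The 14 assembly and supercomplex factors split evenly, 7 lower and 7 higher in Tg7 β-like cells, with a sum at 1.02 (0.991 to 1.05). Ndufaf6, an assembly factor of complex I, was the only factor past 1.5-fold lower, with 104 against 143 UMIs (0.551, 0.424 to 0.715). Sdhaf4, which acts in the maturation of Sdha, was the only factor past it higher, with 970 against 471 UMIs (1.56, 1.40 to 1.75). Of all genes tested, 14.0% were past 1.5-fold lower and 17.2% higher, so the factors passed no more often than genes at large. Ndufaf4 (0.765) and Ndufaf5 (0.774) were the next lowest, and Ndufaf2 (1.35) and Sdhaf3 (1.17) the next highest. Cox7a2l, the supercomplex factor, was at 1.02 (0.974 to 1.07).

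Promoter windows of RefSeq (GRCm38.p6, 250 bases before to 50 after the start) were matched for 66 of the 79 nuclear subunits, in 71 windows. The NRF1 core CGCATGCG, searched on both strands, was in 9 of them (12.7%), beside 4.55% of 3560 windows of genes with at least 1000 UMIs in β-like cells and 1.87% of all 32851 windows. The ETS core CCGGAAG, on both strands, was in 16 (22.5%), beside 18.7% and 8.86%. The windows of Cox6a1, the partner of the member furthest below 1, and of Ndufa1, the member furthest above 1, are shown, both written from the minus strand, with the matches in capitals.
Cox6a1, chr5:115348909-115349208: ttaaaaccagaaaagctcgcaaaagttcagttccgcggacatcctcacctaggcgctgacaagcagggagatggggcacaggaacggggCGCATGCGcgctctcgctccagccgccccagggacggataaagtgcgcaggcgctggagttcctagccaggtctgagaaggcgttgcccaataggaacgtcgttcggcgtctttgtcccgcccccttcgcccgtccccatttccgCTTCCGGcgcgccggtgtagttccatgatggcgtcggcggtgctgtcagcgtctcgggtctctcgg
Ndufa1, chrX:37191189-37191488: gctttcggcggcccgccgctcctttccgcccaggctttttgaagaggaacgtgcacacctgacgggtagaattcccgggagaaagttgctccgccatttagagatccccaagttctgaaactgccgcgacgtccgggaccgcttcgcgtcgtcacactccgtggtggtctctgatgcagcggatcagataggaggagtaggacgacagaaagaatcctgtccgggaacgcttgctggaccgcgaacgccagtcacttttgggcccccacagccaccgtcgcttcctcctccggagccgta
The Cox6a1 window held 1 match of each core, the ETS core as its reverse complement, and the Ndufa1 window neither of these letters. A match is a description of the sequence, and no binding was measured here.

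Cells positive for insulin alone were set beside α-like cells positive for Gcg alone within each library. In Wild-type, the median β over α quotient of the level was 1.81 for the 13 mtDNA-encoded and 1.15 for 76 nuclear subunits, and 11 and 16 of them were past 1.5-fold higher in β-like cells, beside 36.1% of 11337 genes with at least 20 UMIs. In Tg7 the medians were 1.14 and 1.08, and 0 of 13 and 8 of 75 were past it, beside 37.1% of 11930 genes. Past 1.5-fold lower in β-like cells were 0 members in Wild-type (beside 13.1% of genes) and 1 mtDNA-encoded member in Tg7, mt-Nd6 (beside 9.89%). All 13 mtDNA-encoded members and 48 of 75 nuclear subunits with at least 100 UMIs had a smaller quotient in Tg7. Of the 15 such nuclear subunits past 1.5-fold in Wild-type, 13 were smaller in Tg7 (median 1.89 in Wild-type and 1.5 in Tg7), where the choice by the Wild-type value favours a smaller one. These directions rest on the scale: with all UMIs the quotients are multiplied by 0.559 in Wild-type and 1.08 in Tg7, the medians were 1.01 and 0.643 in Wild-type and 1.23 and 1.17 in Tg7, and 1 of the 13 mtDNA-encoded members and 3 of the 75 nuclear subunits had a smaller quotient in Tg7.

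Cox6a2 had the widest quotient in Wild-type, 258 (71.5 to 2140) from 3283 and 2 UMIs, against 6.15 (1.65 to 51.6) from 84 and 2 UMIs in Tg7. Cox5a went from 3.05 (2.43 to 3.87) in Wild-type to 1.45 (1.21 to 1.75) in Tg7, and Sdhc from 2.40 (1.84 to 3.19) to 1.3 (1.04 to 1.64). mt-Cytb was at 2.25 (2.20 to 2.30) and 1.31 (1.29 to 1.34). Ndufa1 went the other way, from 1.23 (1.10 to 1.38) to 2.98 (2.68 to 3.31). Scaled to all UMIs, Cox6a2 (144 and 6.62), Cox5a (1.7 and 1.56) and Ndufa1 (0.687 and 3.21) kept these directions, whereas Sdhc (1.34 and 1.4) and mt-Cytb (1.26 and 1.41) turned.

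**Figure D5:**
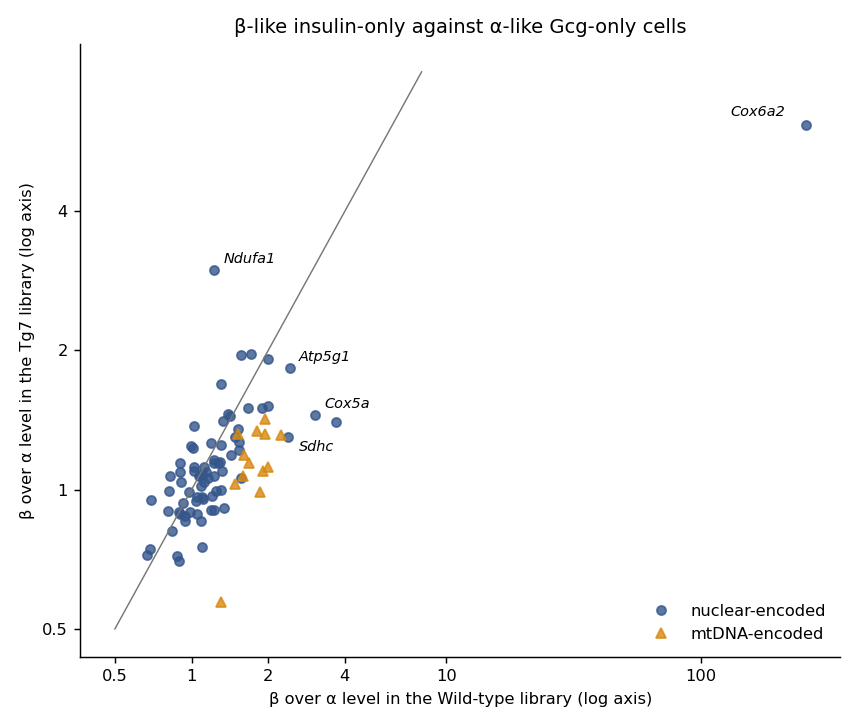
Level in insulin-only β-like cells over the level in Gcg-only α-like cells for each member with at least 100 UMIs in the Wild-type cells compared, Wild-type on the horizontal and Tg7 on the vertical axis (both log scales, non-hormone UMIs), with the line of equal values. The mtDNA-encoded members (triangles) lie below the line, though with all UMIs as the scale 12 of the 13 would lie above it; Cox6a2 lies far below the line (258 and 6.15) and Ndufa1 above it (1.23 and 2.98).

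Genes around the chain were read from 5 lists. Of 19 genes of the tricarboxylic acid cycle and its entry, 18 were lower in Tg7 β-like cells, with a sum at 0.815 (0.796 to 0.834) that turned to 1.43 when scaled to all UMIs. Past 1.5-fold lower were 4 (21.1%, beside 14.0% of all genes tested): Pcx, pyruvate carboxylase (161 against 328 UMIs, 0.372, 0.306 to 0.451), Fh1, fumarase (436 against 757 UMIs, 0.437), Idh2 (0.554) and Cs, citrate synthase (0.619). The highest was Ogdh at 1.04 (0.960 to 1.12). In α-like cells 9 were lower and 10 higher (15 and 4 scaled to all UMIs), with a sum at 1.01 (0.948 to 1.07). Pcx was the 1 gene past 1.5-fold there (5.26%, beside 11.0%), at 0.650 from 12 against 14 UMIs, with an interval that holds 1 (0.275 to 1.51).

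Of 24 carriers and shuttle genes, 10 were lower and 14 higher in Tg7 β-like cells, and 3 were past 1.5-fold in each direction (12.5%, beside 14.0% of genes lower and 17.2% higher, so no more often than genes at large). The lowest was Vdac1, a channel of the outer membrane (726 against 1125 UMIs, 0.489, 0.445 to 0.538), followed by Gpd2 (0.511) and Mpc1, a subunit of the pyruvate carrier (0.570). The highest was Ucp2, an inner-membrane carrier (5.74 against 3.41, 1.68, 1.61 to 1.76), followed by Slc25a12 (1.67) and Tspo (1.5). Of 28 genes for the replication, transcription and translation of mtDNA and their regulators, 20 were lower and 8 higher (median log2 ratio -0.09). Past 1.5-fold lower were 4 (14.3%, a share near the 14.0% of all genes): Fastkd2 (93 against 125 UMIs, 0.564), Polg2 (0.602), Ppargc1b (0.606, 0.339 to 1.07) and Ppargc1a, a coactivator of mitochondrial biogenesis (0.625, 0.493 to 0.793), and none was past it higher. The highest was Tfb1m (1.45, 0.988 to 2.14), and Tfam, which packages mtDNA, was at 0.958 (0.819 to 1.12).

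Of 31 measured genes for cytochrome c and the assembly of complexes III and IV, 15 were lower and 16 higher. Past 1.5-fold, 0 were lower and 2 higher (6.45%, beside 17.2%), Higd1a and Lrpprc. Higd1a had 94 UMIs in Tg7 against 0 in Wild-type, a Tg7 level of 0.0883. In α-like cells Higd1a had 975 and 645 UMIs, levels of 5.08 and 4.43. The part of α-cell transcripts in its β-like UMIs was not tested. Lrpprc, which stabilises mtDNA-encoded transcripts, was at 1.6 (1.4 to 1.82) in β-like cells. In α-like cells Lrpprc was past 1.5-fold lower, at 0.619 (0.455 to 0.841) from 80 against 98 UMIs. Lowest was Cox17, a copper chaperone (0.726, 0.683 to 0.772). Of 13 further assembly genes for complexes I and V, Tmem186 (76 against 132 UMIs, 0.436, 0.325 to 0.583) and Nubpl (0.600) were past 1.5-fold lower (15.4%, beside 14.0%), and Atpif1, the inhibitor of the ATP synthase, was highest at 1.37 (1.31 to 1.42). With all UMIs as the scale, each of these β-like list ratios is multiplied by 1.75 and the α-like ratio of Lrpprc by 0.923.

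Markers of other cell types also differed between the β-like classes, in which 46 Tg7 and 2 Wild-type cells were positive for several hormones. Whether the marker UMIs came from the β-like cells themselves or from other cells was not tested. Per 10000 of all UMIs, the α-cell markers summed to 85.8 in Tg7 (10 of 10 detected) and 12.2 in Wild-type (7 of 10), the γ-cell markers to 82.1 (6 of 6) and 3.69 (5 of 6), the δ-cell markers to 12.0 (9 of 9) and 1.78 (8 of 9), and the erythroid markers to 5.44 (3 of 3) and 0.000802 (2 of 3). Among those at 0 in Wild-type were Irx1 and Ttc9b of the α-cell, Sytl2 of the γ-cell, Ghsr of the δ-cell and Hba-a1 of the erythroid markers, and none of these lists had a marker at 0 in Tg7. Their part in the member ratios was not tested. In cells positive for insulin alone the sums had ratios of 1.07 (1.06 to 1.08) for nuclear and 0.677 (0.675 to 0.679) for mtDNA-encoded subunits, beside 1.07 and 0.675 in the whole class.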

How the data were processed

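The authors deposited raw UMI counts per gene and barcode for 1 Tg7 and 1 Wild-type islet library, which the submitters' processing notes credit to Cell Ranger 3.0.2 with STAR on mm10, after bcl2fastq 2.17.1.14. The strand setting, the annotation version and the treatment of reads shared with near-identical copies are not given in the sources used here. Members and gene lists were chosen with earlier results of these data known.

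Barcodes under 1000 UMIs or over 20% mitochondrial UMIs were dropped (117 of 1123 Tg7 and 100 of 855 Wild-type barcodes), and Scrublet (scanpy 1.11.5) removed 14 and 6 called doublets. The mitochondrial members take part in this filter. Cells were normalised with SCTransform (sctransform 0.4.2), the mitochondrial percentage regressed out as in the study, integrated in Seurat 5.3.0 (R 4.3.3) without the members, hormone genes and lists, and clustered on 20 principal components at resolution 0.5. No deposited cell types were used, so classes can differ from those of the study. A class was named from marker lists where its 10 leading genes held at least 2 markers of a type, and fewer of each other type. A cell was hormone-positive above 6.3806% (insulin), 4.0308% (Gcg), 0.7426% (Sst) or 3.6923% (Ppy) of its UMIs, which is 0.1 of the median share in the Wild-type class.

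Counts were summed per class and library and scaled to 10000 UMIs of genes other than 7 hormone genes. Ratios have conditional exact binomial intervals and shares exact Clopper-Pearson intervals (95%, counting error only), and a count of 0 was given the limit of 3 counts. With 1 library per group no p-value was computed. The computation was checked on simulated counts. Named were the isoform pairs, the mtDNA-encoded members, the 3 highest and 3 lowest ratios per complex with at least 100 UMIs in β-like cells, the 5 members with the widest range over Wild-type classes, and the highest and lowest of each list, and a few items that fall under this rule are not reported here, while other list members past 1.5-fold were named after their values were seen. No member was past 1.5-fold in opposite directions in β-like and α-like cells. 3′ UTRs came from GENCODE vM1, of an older build, and were used for sequence alone. The alternatives tried were scaling to all UMIs, to UMIs of neither hormone nor mitochondrial genes or with TMM factors (edgeR 4.0.16). Further alternatives were stricter and no barcode filters, other gene minimums, doublets kept, means over cells and no integration. Added after seeing the data were cells positive for insulin alone from any cluster, and every alternative for the mtDNA to nuclear quotient.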

Additional observations from a re-analysis of the deposited data

Results flagged for a closer look

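For Sdhc and Cox5a, which had at least 100 UMIs in each class, the ratios in β-like and α-like cells were both over 1.3-fold from 1 in opposite directions, with counting intervals on opposite sides of 1. Sdhc had a Tg7 over Wild-type ratio of 0.739 (0.672 to 0.812) in β-like and 1.38 (1.02 to 1.87) in α-like cells. For Cox5a the ratios were 0.735 (0.684 to 0.790) and 1.49 (1.16 to 1.92). In Gcg-only cells the ratio was 1.35 (0.955 to 1.91) for Sdhc, an interval that holds 1, and 1.54 (1.16 to 2.06) for Cox5a. With 1 library per genotype these differences were not tested. The opposite direction rests on the scale: with all UMIs the β-like ratios were 1.29 for both and the α-like ratios 1.27 and 1.37.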

How the results depend on the processing

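Over the alternatives, 83 of 117 recomputed values stayed within their counting interval or within 1.5 times the count, 30 moved and 4 reversed. Scaling to all UMIs reversed the summed mtDNA-encoded ratio in β-like cells (1.18) and the ratios of Cox6a1 (1.38), mt-Cytb (1.01) and mt-Nd3 (1.48). It gave 1.87 for the summed nuclear ratio. It also left 1 nuclear subunit past 1.5-fold lower and 66 past it higher, with no share over all genes computed on that scale. The nuclear ratio was otherwise 1.02 scaled to UMIs of neither hormone nor mitochondrial genes, 1.08 with TMM factors, 1.05 with no barcode filter and 1.05 with doublets kept. The mtDNA-encoded ratio was 0.645, 0.681, 0.680 and 0.678 under the same settings. It was 0.670 as a mean over cells and 0.685 in cells of any cluster positive for insulin alone. The quotient of mtDNA-encoded to nuclear UMIs, Tg7 over Wild-type, was 0.647 with no barcode filter, 0.627 over cells and 0.646 with doublets kept. It was 0.644 in cells of any cluster positive for insulin alone. Over these alternatives the Cox6a2 share of its pair stayed between 3.41% and 4.43% in Tg7 and between 62.8% and 63.2% in Wild-type β-like cells. The shares given above for the single β-like clusters and for β-like insulin-only cells lay outside these ranges. Without integration the β-like class held 1 Tg7 and 451 Wild-type cells and gave no value. No paired analysis was possible because each genotype is 1 library, and for the same reason no replicate could be left out. Depth limited the rare isoforms and the endothelial-like and macrophage-like classes.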
